A study of Saccharomyces cerevisiae with 4 samples.

Results

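The mtr3-1 strain of *Saccharomyces cerevisiae*, strain T208 with a mutation in MTR3, was compared with wild type (WT), strain BJ2664. The members are all open reading frames (ORFs) with values for both libraries in the 16 term tables of the series, each ORF taken once: 133 of the 144 ORFs named there. The other 11, among them TEM1, SWE1, STE20, CIN2 and CDC34, were listed without values. Both strains grew in rich medium (YPD) at 30 °C to an OD600 of 0.4 and then spent 2 h at 37 °C, so the control library comes from heat-shifted cells too. There was 1 poly(A)-selected library per strain, and the series holds 2 further mutants treated alike, mtr4-1 (strain T188) and dis3mtr (strain T186). With 1 library a side no difference below can be set against replicate error, and strain background and genotype cannot be told apart. The MTR3 transcript itself is not analysed here.

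The RNA exosome degrades and trims RNA from the 3′ end in the nucleus and the cytoplasm. Mtr3 is one of the ring subunits through which RNA is threaded on its way to the catalytic subunit Dis3, and the helicase Mtr4 brings nuclear RNAs to the complex. The genes measured here serve another process, the building of microtubules and the passage through mitosis: tubulins and their chaperones, spindle motors, checkpoints, the anaphase-promoting complex, the mitotic exit pathway and cell polarity.

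The tables give each library a value that the authors call normalized, without stating how, and the depth behind a value is unknown. Values are therefore compared between libraries for the same gene, and genes are sorted by level only where coding length is described. A gene was called high at a value at least 15% above WT and low at a value at least 15% below WT, the thresholds the authors state in their tables. Between them a gene is described as within the thresholds, which does not show that it was unchanged. Values ran from 1.69 to 1443 units in mtr3-1 and from 0.376 to 1506 units in WT.

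High and low genes were nearly balanced in mtr3-1. Of 133 ORFs, 38 were high, which is 28.6%, and 44 were low, which is 33.1%. The median ORF was at 99.4% of WT, and the middle of the distribution lay between 77.7% and 125% (lower and upper quartile). The SD of the log2 ratio across ORFs was 0.68, a spread between genes and not an error. At least 2-fold higher were 8 ORFs (6.02%), and at least 2-fold lower were 10 (7.52%). Division of every ratio by the median left 38 high ORFs (28.6%) and 43 low ones (32.3%), since the median was so close to 100%.

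**Figure D1:**
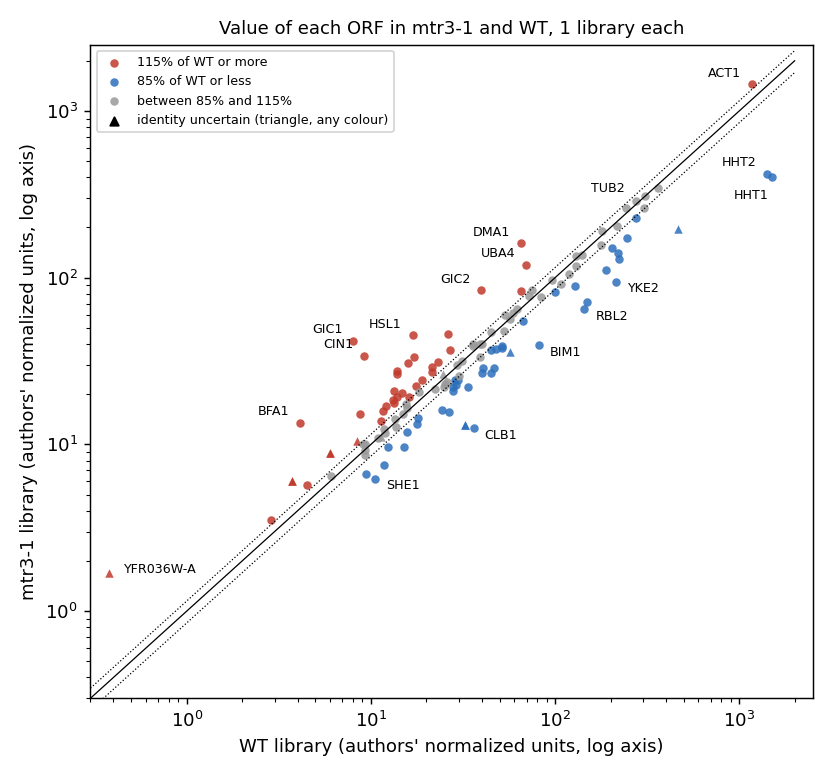
Value of each of the 133 ORFs in the mtr3-1 library (vertical) against the WT library (horizontal), in the authors' normalized units on log axes. The solid line marks equal values and the dotted lines the high and low thresholds, 15% above and 15% below WT. HHT1 and HHT2 lie far below the line at the upper end, and GIC1, CIN1 and BFA1 lie far above it at low WT values.

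Histone H3 was the lowest of all groups. HHT1, 1 of the 2 genes for histone H3 (chromosome 2, 256 kb, positions on sacCer2 as the tables give them), had 402 units in mtr3-1, against 1506 units in WT. HHT2, the other (chromosome 14, 575 to 576 kb), had 421 units in mtr3-1 and 1417 units in WT. They stood at 26.7% and 29.7% of WT, a 3.74-fold and a 3.37-fold lower value, the lowest and second lowest in the tables. The genes share long stretches of sequence: 79.3% of the 36-base words in each coding region occur once in the R64 genome. Reads from the remainder could come from either gene. The word length is the number of sequencing cycles, and mapped reads are shorter if the 3 barcode bases were among those cycles. Histone genes are transcribed mainly in S phase. In bulk RNA, fewer cells expressing a gene and less RNA per cell cannot be told apart.

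The third lowest was CLB1, a B-type cyclin that drives mitosis (chromosome 7, 703 to 705 kb), with 12.5 units in mtr3-1, against 36.2 units in WT, or 34.5%. No other measured B-type cyclin was outside the thresholds, and 1 of the 6 genes on that list was not measured. CLB2, the closest relative of CLB1, had 11.7 units in mtr3-1 and 11.9 units in WT. CLB3, CLB4 and CLB5 stood at 101%, 105% and 92.2% of WT. The cyclin list thus had 1 low member of 5 (20%, against 33.1% of all ORFs), and its median was 98.2%.

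Prefoldin, the complex that hands unfolded actin and tubulin to the chaperonin CCT, was low in all 5 measured subunits, at a median of 58.7% of WT. YKE2 had 94.7 units in mtr3-1, against 215 units in WT (43.9%). PAC10 had 71.9 units in mtr3-1, against 149.6 units in WT (48.1%). GIM4 had 111 units in mtr3-1, against 189 units in WT (58.7%). The other 2, GIM5 and GIM3, stood nearer to WT, at 70.2% and 73.5%. Against 33.1% of low ORFs among all, 5 of 5 were low in this list, which also has the shortest genes of any list with 3 or more members, with a median coding length of 390 bases.

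CCT itself, the ring-shaped chaperonin that folds tubulin and actin, had a median of 86.8%, within the thresholds. Of its 7 measured subunits 3 were low, CCT8 at 64.6%, CCT2 at 70.4% and CCT6 at 83.1% of WT, and none was high. The share of low members, 42.9%, lies near the 33.1% of all ORFs. CCT8 had 142 units in mtr3-1 and 219 units in WT, and CCT2 had 172 units in mtr3-1 and 244 units in WT. CCT3, CCT5, CCT7 and CCT4 lay between 86.8% and 107.6%, inside the thresholds. This list was drawn up after the values had been seen.

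The tubulin genes stood close to their WT values while their folding cofactors went in opposite directions. TUB2, the β-tubulin gene, had 289 units in mtr3-1 and 274 units in WT. The α-tubulin genes TUB1 and TUB3 had 136 and 137 units in mtr3-1, against 129.6 and 139.6 units in WT. All 3 lay within 6% of their WT values. CIN1, a cofactor that folds β-tubulin (chromosome 15, 989 to 992 kb), had 34.1 units in mtr3-1, against 9.23 units in WT, a 3.69-fold higher value. CIN1 was also high in mtr4-1 and dis3mtr, at 329% and 461% of WT. RBL2, which binds β-tubulin and buffers an excess of it, had 65.1 units in mtr3-1, against 144 units in WT (45.0%). PAC2, the α-tubulin cofactor, was low at 74.5%. The list had 1 high and 2 low members of 7, shares of 14.3% and 28.6%, against 28.6% and 33.1% of all ORFs.

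The highest ratio of all belonged to a cell polarity gene, which was also high in both other mutants (values further below). GIC1, an effector of the polarity GTPase Cdc42 (chromosome 8, 221 to 222 kb), had 41.9 units in mtr3-1, against 8.02 units in WT, a 5.22-fold higher value. Its relative GIC2 had 83.8 units in mtr3-1 and 39.7 units in WT, or 211%. CLA4, a kinase that Cdc42 activates, was high at 136%. The GTPase gene CDC42 and its exchange factor CDC24 stood at 101% and 96.5%, so the 3 high members of this list of 5 were all effectors. High members made up 60% of the list, against 28.6% of all ORFs. SKM1, another kinase of the Cla4 family, was inside the thresholds at 91.6%.

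**Figure D2:**
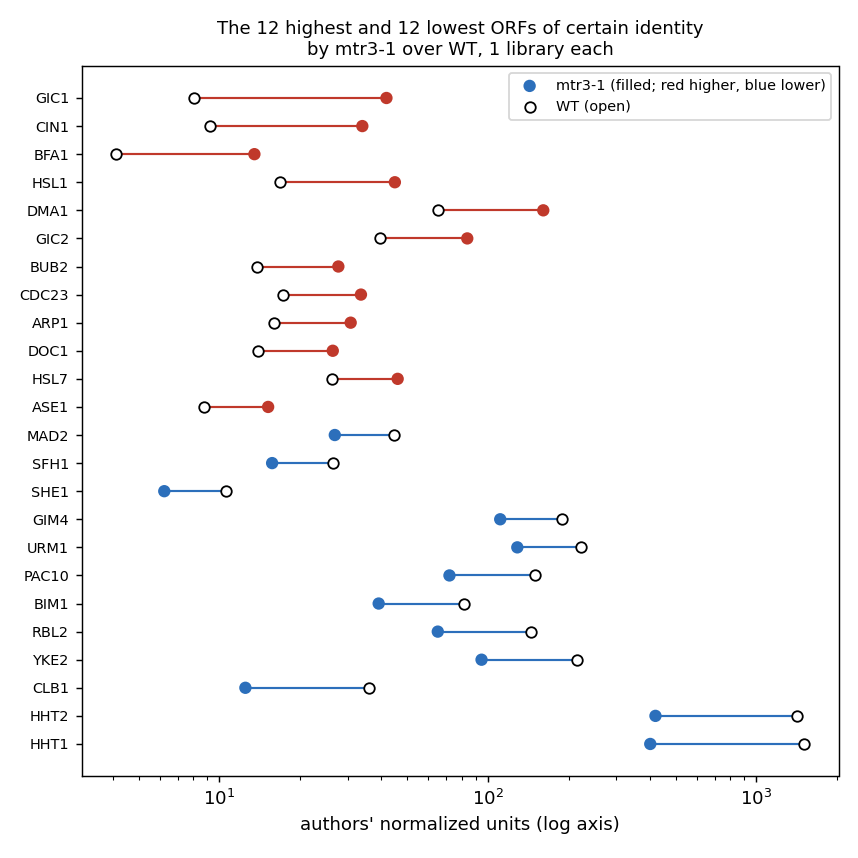
Values in mtr3-1 (filled) and WT (open) for the 12 highest and the 12 lowest ORFs of certain identity, ordered by their ratio, on a log axis. All but DMA1 among the 12 highest had WT values under 40 units, and the lowest ones range from 10.6 units (SHE1) to 1506 units (HHT1) in WT.

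The morphogenesis checkpoint delays mitosis through the kinase Swe1 when a bud fails to form. The 3 measured genes of certain identity on this list were high, and all 3 act against Swe1. HSL1, a kinase that leads to Swe1 destruction, had 45.0 units in mtr3-1, against 16.8 units in WT (267%). HSL7, its adaptor, had 46.1 units in mtr3-1, against 26.2 units in WT (176%). MIH1, the phosphatase that opposes Swe1, was at 122%. In mtr4-1 and dis3mtr, HSL1 stood at 198% and 399% of WT, HSL7 at 120% and 314%, and MIH1 at 84.2% and 107%. SWE1 had no value. The septin-related genes of the same list, KCC4, GIN4 and BNI5, are of uncertain identity and are given further below. With them the list had 4 high and 1 low members of 6, against 28.6% high and 33.1% low among all ORFs.

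Genes of the spindle position checkpoint, which holds cells in anaphase until a spindle pole enters the bud, had 6 high members of 8, against 28.6% of all ORFs, or 5 of 7 without DMA2, whose identity is uncertain. BFA1 (chromosome 10, 533 to 538 kb) and BUB2 together form the GTPase-activating complex that inhibits mitotic exit. BFA1 had 13.5 units in mtr3-1, against 4.13 units in WT (327%). BUB2 had 27.7 units in mtr3-1, against 13.8 units in WT (201%). DMA1, a ubiquitin ligase of the checkpoint (chromosome 8, 340 to 341 kb), had 161 units in mtr3-1, against 65.4 units in WT (246%). The kinase KIN4 and LTE1, which antagonizes that kinase, were both high at 127%. In mtr4-1 and dis3mtr, BFA1 stood at 480% and 395% of WT, BUB2 at 180% and 217%, and DMA1 at 85.1% and 126.6%. KIN4 stood at 125% and 217% in those mutants, and LTE1 at 131% and 170%. RTS1, a regulatory subunit of the phosphatase PP2A, was inside the thresholds at 99.0%. SPC72, which anchors the checkpoint and the astral microtubules at the spindle pole body, was low, with 7.54 units in mtr3-1 and 11.8 units in WT (63.7%). The list's median was 137%, or 127% with DMA2 left out.

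The spindle assembly checkpoint, which senses unattached kinetochores, had 2 high and 3 low members of 7, shares of 28.6% and 42.9%, near those of all ORFs (28.6% and 33.1%). BUB3 had 31.2 units in mtr3-1 and 23.2 units in WT (135%), and BUB1 had 3.51 units in mtr3-1 and 2.85 units in WT (123%). MAD2 had 26.9 units in mtr3-1 and 44.6 units in WT (60.3%), and MAD1, its partner at the kinetochore, had 24.2 units in mtr3-1 and 29.6 units in WT (81.8%). MAD3 and the kinase gene MPS1 lay inside the thresholds at 105% and 104%. CDC20, the target of the checkpoint, was low at 76.3%. Among kinetochore genes of certain identity, SPC105 was high at 133%, SGO1 was within the thresholds at 93.9%, and BIR1 was low at 78.4%.

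All 13 listed subunits of the anaphase-promoting complex, the ubiquitin ligase that triggers anaphase, had values: 5 were high, 3 were low, and the median was 104%. These shares, 38.5% and 23.1%, lie near the 28.6% and 33.1% of all ORFs. CDC23, CDC27 and CDC16, which carry tetratricopeptide repeats, were high at 195%, 141% and 126%. CDC23 (chromosome 8, 437 to 439 kb) had 33.7 units in mtr3-1, against 17.2 units in WT. DOC1, which helps to bind substrates, had 26.4 units in mtr3-1, against 13.9 units in WT (189.8%), and APC4 was high at 138%. The low ones were APC5, with 9.66 units in mtr3-1 and 15.2 units in WT (63.6%), MND2 at 75.3% and APC9 at 77.7%. The catalytic pair APC2 and APC11 stood at 101% and 85.4%, and the scaffold APC1 at 98.6%. The small subunit SWM1 was at 105%. Of the activators, CDH1 was at the edge of the threshold with 84.8% (85.3% after division by the median). Separase, ESP1, was within the thresholds at 111%.

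The mitotic exit list had 2 high and 3 low members of 7 and a median of 90.1%, with shares of 28.6% and 42.9% that lie near the 28.6% and 33.1% of all ORFs. CDC15, a kinase of the mitotic exit network, was high at 140.3% of WT, and LTE1 at 127%. CDC14, the phosphatase that the network releases, had 28.6 units in mtr3-1, against 40.4 units in WT (70.7%). Its nucleolar anchor NET1 stood at 103%. MOB1, an activator of a kinase in the network, and IBD2 were low at 81.3% and 66.6%.

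Motors and plus-end proteins had members at both ends. ASE1, which bundles microtubules in the spindle midzone, had 15.2 units in mtr3-1, against 8.73 units in WT (174%), and KIP3, a kinesin that shortens microtubules, was high at 119%. BIM1 and BIK1, proteins of the growing plus end, were low: BIM1 had 39.2 units in mtr3-1, against 81.8 units in WT (47.9%), and BIK1 stood at 77.8%. CIK1, which guides the motor Kar3, was within the thresholds at 108%. For dynein, the heavy chain gene DYN1 was high at 135%. The dynactin genes disagreed, with ARP1 at 193%, LDB18 at 91.0% and JNM1 at 65.8%. SHE1, which restrains dynein, had 6.23 units in mtr3-1, against 10.6 units in WT (58.9%).

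Among the remaining groups no measured member of RSC, a chromatin remodeler, was high, and 3 of 6 were low, against 33.1% of all ORFs. The list median of 85.2% lay within the thresholds. SFH1 had 15.7 units in mtr3-1, against 26.5 units in WT (59.3%), while the ATPase gene STH1 and RSC6 stood at 79.4% and 81.8%. The PP2A genes CDC55, PPH22, RTS1 and PPH21 all lay inside the thresholds, between 89.0% and 113%. ACT1, the actin gene, had 1443 units in mtr3-1 and 1169 units in WT (123%). The formin gene BNI1 stood at 112% and MYO2, the myosin that walks on actin cables, at 72.7%. KEL1, a kelch protein of polarity and mitotic exit, was at 157%, and its relative KEL2 at 106%.

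In the ubiquitin-like modifier pathway of URM1 the modifier and its enzyme went apart. URM1 had 129 units in mtr3-1, against 221 units in WT (58.1%), whereas UBA4, which activates it, had 119.8 units in mtr3-1, against 69.4 units in WT (173%). The SUMO genes UBC9 and ULP1 were within the thresholds, at 101% and 92.0%. CDC4, the F-box protein of an SCF ubiquitin ligase, was low at 81.8%, and its cullin CDC53 stood at 108%. Of the RAM kinase network, TAO3 was high at 128%, CBK1 within the thresholds at 85.5% and MOB2 low at 61.7%. CHS1, a chitin synthase, was at 107%, and DDC1, a DNA damage checkpoint clamp subunit, was low at 71.3%. SFI1, of the spindle pole body, was low at 80.1%. RSC3, RSC4 and RSC9 lay between 88.7% and 102%, and AMN1 at 90.1%.

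Genes outside every list numbered 15. Of those with a certain identity, YBP2, the PP1 regulatory gene GAC1 and BUD14 were high, between 128% and 138%, and RIO1 and CAK1, the kinase that activates Cdc28, were low at 75.4% and 65.2%. CDC7, RPN4, TVP38, TGL4, TGL3, calmodulin (CMD1) and the histone chaperone SCM3 lay inside the thresholds, between 91.3% and 113%.

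**Figure D3:**
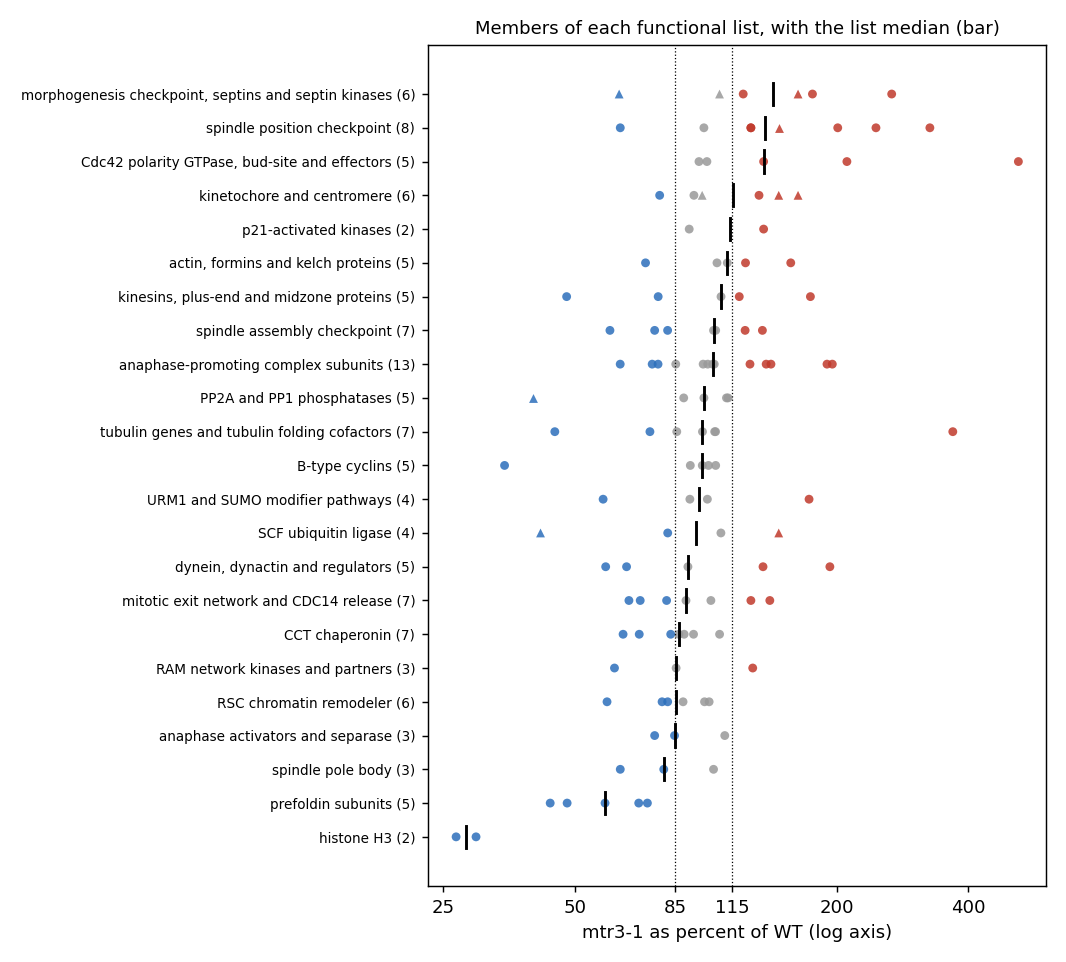
Each gene of the functional lists with at least 2 measured members as percent of WT in mtr3-1 (log axis). Bars are list medians, triangles are ORFs of uncertain identity and the dotted lines mark the high and low thresholds. The medians run from 28.2% for histone H3 and 58.7% for prefoldin to 142% for the morphogenesis and septin list.

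Sorted by chromosome, the high genes were unevenly placed. All 6 members on chromosome 8 (by ORF name) were high. All the other chromosomes together had 26 high and 40 low among the remaining genes of certain identity. Over all 121 genes of certain identity, chromosome 8 included, 26.4% were high and 33.1% low. GIC1, DMA1, CDC23, ARP1, UBA4 and KEL1 stood at 522%, 246%, 195%, 193%, 173% and 157% of WT, a median of 194%, against 98.2% on the other chromosomes. They belong to 6 different functional groups and lie from 221 to 439 kb along the chromosome. The next highest median was 127%, for the 5 genes on chromosome 1. This grouping was chosen after the values had been seen, and the part of chromosome of origin in these ratios was not tested. DNA was not measured here, so more copies of chromosome 8 in strain T208 and more RNA per gene copy cannot be told apart in these 6 ratios.

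These 6 genes had lower medians in the other mutants. The median was 80.9% of WT in mtr4-1 and 119.6% in dis3mtr, both from the same WT library and close to the medians of the other chromosomes there, 81.8% and 111%. Single genes differed: GIC1 stood at 268% and 499% of WT in mtr4-1 and dis3mtr, and ARP1 at 125% and 267%. DMA1, CDC23, UBA4 and KEL1 lay between 50.8% and 85.1% in mtr4-1 and between 80.1% and 126.6% in dis3mtr. Direct ratios between mutants leave out WT but reuse the mtr3-1 values by which chromosome 8 was singled out, so they are no separate check. Each of the 6 was higher in mtr3-1 than in mtr4-1, by 1.55-fold (ARP1) to 3.40-fold (UBA4). The median ratio was 2.42, against 1.15 on the other chromosomes. A ratio of 1.5 was reached by 6 of 6 genes on chromosome 8 and by 14 genes of certain identity elsewhere (12.2% of them). The median ratio of mtr3-1 to dis3mtr was 1.63, against 0.80 on the other chromosomes. ARP1 was an exception, with 30.8 units in mtr3-1 and 42.7 units in dis3mtr, and GIC1 had 41.9 units in mtr3-1 and 40.04 units in dis3mtr. STE20, SPO12 and YHR127W, also on chromosome 8, had no values.

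**Figure D4:**
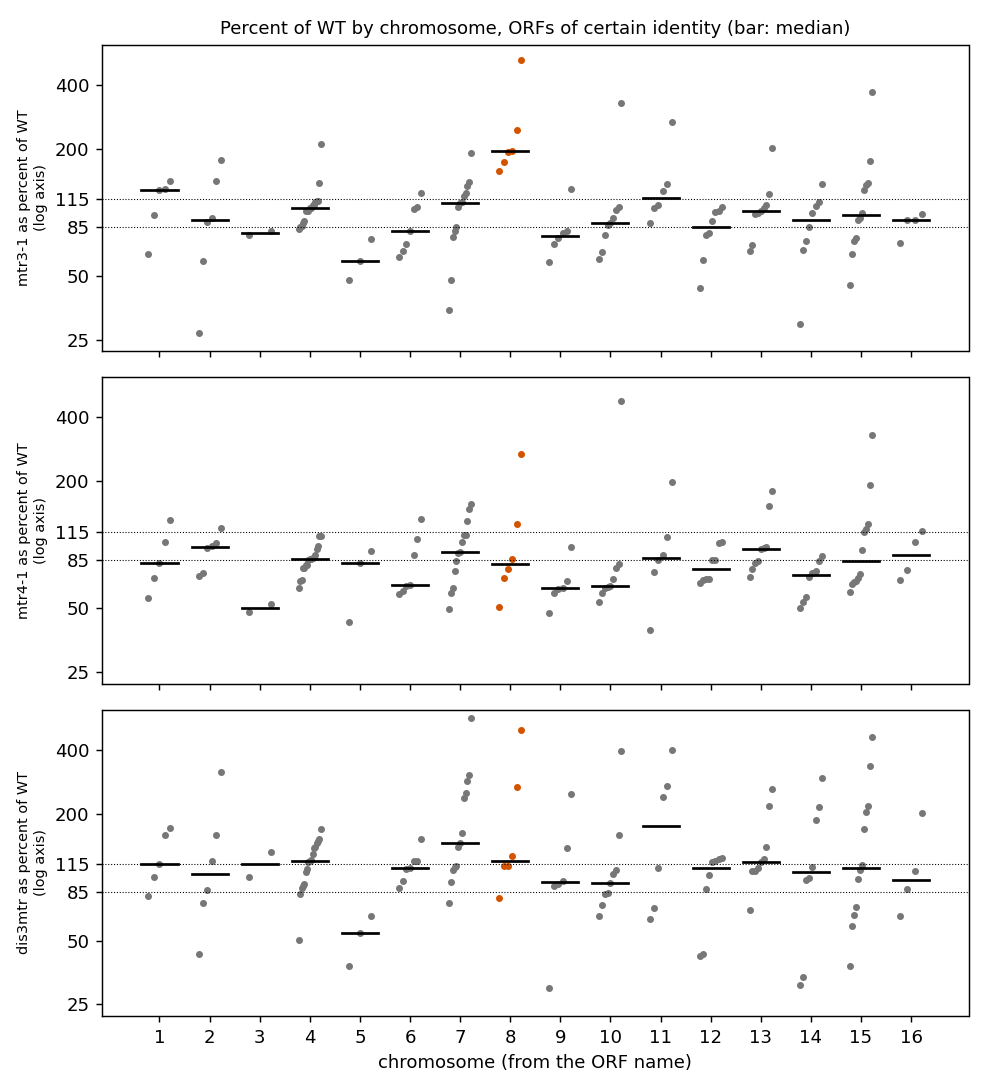
Percent of WT on a log axis for the 121 ORFs of certain identity by chromosome, for mtr3-1 (top), mtr4-1 (middle) and dis3mtr (bottom), all against the same WT library. Bars are medians and chromosome 8 is in orange. Its 6 genes lie at 157% or more in mtr3-1, while their medians in mtr4-1 and dis3mtr are 80.9% and 119.6%.

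Lists that hold a chromosome 8 gene were also read without it. The Cdc42 list still had a median above the high threshold, at 118% without GIC1 and 136% with it. The spindle position list stood at 127% without DMA1, against 137% with it. The dynein and dynactin list moved below the low threshold, to 78.4% without ARP1, against 91.0% with it. Without UBA4 no gene of the URM1 and SUMO list was high. The anaphase-promoting complex and actin lists stayed within the thresholds, at 102% without CDC23 and 109% without KEL1, against 104% and 112% with them.

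Low values went with short coding regions. Across the 121 genes of certain identity the log2 ratio had a Spearman's rho of 0.40 with coding length (Pearson's r 0.38), given as a description because the genes share both libraries. Over these 121 genes, 33.1% were low and 26.4% high. Among the 31 shortest genes, of 300 to 1107 bases, 17 were low (54.8%) and 4 high (12.9%), and the median was 77.7%. Among the 30 longest, of 2403 to 12279 bases, 4 were low (13.3%) and 15 high (50%), and the median was 116%. In the authors' units, whose relation to gene length is not stated, long genes also had lower values (rho -0.51 between length and mean level), and the log2 ratio had a rho of -0.26 with the mean level of both libraries. At levels above the median the 41 shorter genes had a median of 86.8% and the 19 longer ones 99.0%. At lower levels the 20 shorter genes had a median of 91.7% and the 41 longer ones 111%. The part of length or level in these ratios was not tested.

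**Figure D5:**
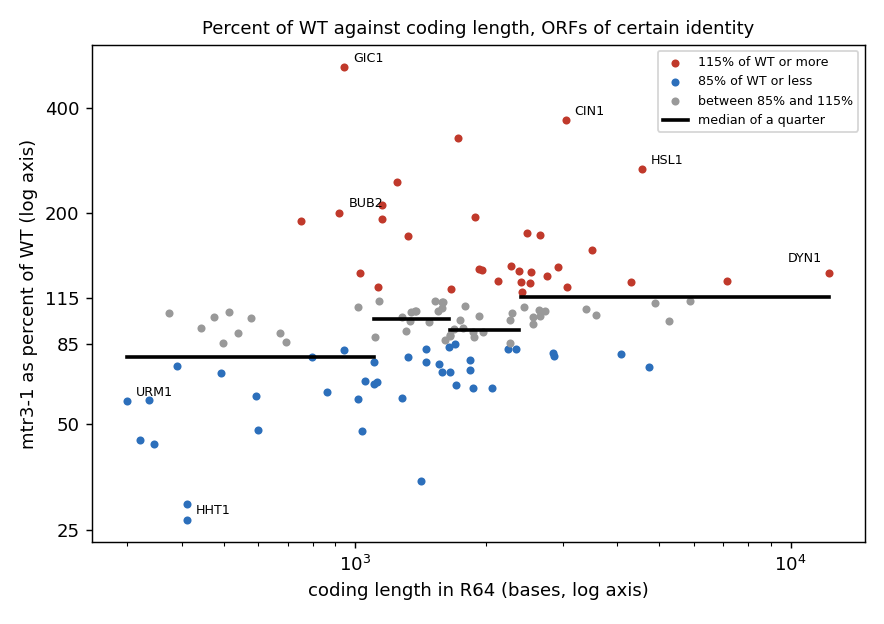
Percent of WT in mtr3-1 against coding length in R64 for the 121 ORFs of certain identity, both on log axes. Black lines are medians of 4 length groups, and they lie at 77.7%, 99.9%, 92.9% and 116% in order of length. GIC1 and BUB2 are short genes with high values, and the histone gene HHT1 lies lowest.

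Other sequence features were described in the same way. Coding GC content had a rho of -0.03 with the log2 ratio. The 8 genes with an intron in the coding region, among them ACT1, TUB1, TUB3, UBC9 and GIM4, had a median of 89.8% with 1 high and 4 low, against 99.4% for the 113 without. Those counts are shares of 12.5% and 50%, against 27.4% high and 31.9% low for the 113. For 5 genes, HHT1, HHT2, PPH21, PPH22 and CDC4, under 95% of the 36-base words were unique in the genome. Of these, 3 (60%) were low, HHT1, HHT2 and CDC4, none was high, and the median was 81.8%. Among the other 116 genes, 31.9% were low and 27.6% were high.

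For 12 ORFs the identity is uncertain, because the listed position belongs to another gene, the ORF has no entry in R64 or another ORF carries the same values. YFR036W-A, listed under the name CDC26, had 1.69 units in mtr3-1, against 0.376 units in WT, the lowest WT value in the tables. CBF2 and KCC4 share 6.07 units in mtr3-1 and 3.73 units in WT, and CTF13 and DMA2 share 8.84 units in mtr3-1 and 6.01 units in WT. GLC7 and YER133W-A share 12.98 units in mtr3-1, against 32.3 units in WT (40.2%). SKP1 had 195 units in mtr3-1, against 467 units in WT (41.8%), and BNI5 had 36.0 units in mtr3-1 and 56.9 units in WT, with the 2 positions exchanged. GIN4 and CEP3, also exchanged, stood at 107.6% and 98.1%, and YDR118W-A, listed as APC4, at 125%. CDC26 under its own ORF was at 104%. Without these 12, the counts were 32 high and 40 low of 121, with a median of 99.0%.

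Of all ORFs, CHS1 stood highest in mtr3-1 relative to the higher of the other 2 mutants, ahead of KEL1 and DMA1. It had 191 units in mtr3-1, against 89.7 units in mtr4-1 and 60.3 units in dis3mtr. With 179 units in WT, CHS1 was within the thresholds in mtr3-1 (107%) and low in mtr4-1 (50.1%) and dis3mtr (33.7%). Of the genes that stood below both other mutants, SHE1 was the one of certain identity with the widest gap. It had 6.23 units in mtr3-1, against 10.7 units in mtr4-1 and 16.7 units in dis3mtr. HHT1 had 402 units in mtr3-1, against 1108 units in mtr4-1 and 650.2 units in dis3mtr. For HHT2 the gap to dis3mtr was small, with 421 units in mtr3-1 and 438 units in dis3mtr, against 800.4 units in mtr4-1. CLB1 had 12.5 units in mtr3-1, against 18.0 units in mtr4-1 and 27.4 units in dis3mtr. These differences rest on 1 library each and were not tested.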

How the data were processed

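Libraries were poly(A)-selected, carried a barcode of 3 bases and were sequenced together for 36 cycles, per the labels' protocols. Bowtie and the build sacCer2 are named in the submitters' processing notes. How reads were counted, whether strand was used and how the signal was normalized are not stated in those notes or in the tables. The deposited tables hold a normalized signal per gene and library, per the file headers. The dis3mtr column holds the same signal.

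From these values the mtr3-1 to WT ratio was computed for each ORF (Python 3.11.15, pandas 2.3.3, scipy 1.17.1), as deposited and divided by the median ratio. No test was possible with 1 library per strain. The calculation was tested on simulated data. Names, coding lengths and 36-base words came from R64, in which 130 of the 133 members were found. Identity was called certain where the listed position lay within 1 kb of the R64 gene and no other ORF had the same values. In 3 certain ORFs (ARP1, CLB4 and RSC4) the listed chromosome number differs from that of the ORF name. Printed positions are the tables' own. Genes were named by rule: the 10 highest and 10 lowest, and members of 24 functional lists, of which 22 had measured members and those of exosome and heat-shock genes had none. Another 3 lists (CCT, RAM network and p21-activated kinases) were added later. Members and lists were chosen with earlier results of these data known. Alternatives were the division by the median, distinct values only, certain identities only, a level filter, a pseudocount of 1, other thresholds, all entries and, added after seeing the data, leaving out chromosome 8 or, for the relations to length and level, histone H3. The values of 1 member are not reported here.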

Additional observations from a re-analysis of the deposited data

Results flagged for a closer look

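Of all genes, 2 lay 1.5-fold or more from WT in opposite directions in mtr3-1 and in another mutant. UBA4 stood at 173% of WT in mtr3-1 and at 50.8% in mtr4-1, or at 174% and 62.1% after division by each library's median. SHE1 stood at 58.9% of WT in mtr3-1 and at 158% in dis3mtr, or at 59.3% and 140.3% after division. The differences were not tested, and each mutant is 1 library measured against the same WT library.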

How the results depend on the processing

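No paired analysis was possible because each strain has 1 library and no result comes from a test across samples, and no replicate could be left out. The counts of 38 high and 44 low ORFs became 17 and 23 at a 1.5-fold threshold and 8 and 10 at a 2-fold threshold, as stricter thresholds must give. With the lowest values left out (mean level above 15.8 units, 99 ORFs kept), 23 were high and 37 low, and 5 in place of 3 lists with at least 3 members had a median at or below the low threshold. Kinesins (3 members left), mitotic exit (5), RSC (5) and SCF (3) then moved below that threshold, and the actin list (4) moved above the high one. The B-type cyclins kept only CLB1 and CLB3. The spindle pole body list and the list of anaphase activators and separase, low with all members, kept 1 member each and left the count. Division by the median, a pseudocount of 1, distinct values only, certain identities only, all entries counted and leaving out chromosome 8 kept both counts within 1.5 times. Division by the median and the pseudocount each moved 1 ORF, CDH1, across a threshold. The kinetochore list, just above the high threshold with all 6 members, was at 93.9% over the 3 of certain identity. Spearman's rho with coding length ranged from 0.38 without HHT1 and HHT2 to 0.46 without chromosome 8, and rho with mean level kept its sign under every alternative run. The depth of the libraries is unknown, so low values such as those of BFA1, BUB1 and LTE1 carry an unknown counting error.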
